A study of Mus musculus with 4 samples.

Results

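Fibroblasts are among the stromal cells of the prostate, and they lie outside the epithelial layer from which basal cells are sorted. They are commonly recognised by the matrix proteins they secrete and by a few surface proteins. Decorin and lumican bind collagen fibrils and belong to the small leucine-rich proteoglycans. Matrix Gla protein blocks calcification of soft tissue, and fibulins 1 and 2 are glycoproteins of elastic fibres and basement membranes. The platelet-derived growth factor receptors alpha and beta are tyrosine kinases that carry growth signals to mesenchymal cells, Thy1 (CD90) is a surface glycoprotein anchored by lipid, and Fap is a surface serine protease of activated fibroblasts.

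The 9 genes for these proteins, Dcn, Lum, Mgp, Fbln1, Fbln2, Pdgfra, Pdgfrb, Thy1 and Fap, were followed in prostate spheres grown from sorted basal cells. They were picked by name as fibroblast markers, and all 9 had at least 1 probe whose RefSeq accession maps to them, 12 probes in all of 41174 on the array. Each passed the filter on dim probes and was among the 21451 genes tested. None of these genes is made by fibroblasts alone.

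The basal cells had been isolated by FACS from the prostates of adult FVB mice and grown as spheres, a culture in which single epithelial progenitors form balls of cells. In the DAPT group (2 arrays) the medium held DAPT at 5 µM, an inhibitor of γ-secretase, the protease that frees the active part of Notch receptors. In the vehicle group (2 arrays) it held DMSO, and in both groups it was renewed every 24 h. On each array the spheres were read in red against a universal mouse reference in green, with no dye swap, so a level below is a log2 ratio of spheres over reference. Whether replicate arrays stand for separate cultures or mice is not in the labels, and the p-values therefore cover a spread that may be technical alone.

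The red medians stood 2.85-fold and 2.42-fold over background on the DAPT arrays and 1.94-fold and 1.82-fold on the vehicle arrays. All 4 arrays shared 1 slide and 1 scan, with the DAPT arrays at positions 2 and 1 and the vehicle arrays at positions 4 and 3, so position and treatment cannot be told apart. Across all genes tested with limma, 623 were higher and 844 lower with DAPT (42.5% of calls higher). With median centring in place of loess 70.7% of calls were higher, with scale normalization 27.8% were, with the spots of extreme background kept 5.41% and without marked spots 70.6%. The labelled epithelial identity was borne out by Krt5, a keratin of basal cells, at 4.67 and 5.17 in DAPT spheres and 4.67 and 4.63 in vehicle spheres, and by its partner Krt14 at 4.32 and 4.17 in DAPT spheres and 4.52 and 3.88 in vehicle spheres. The adhesion genes Cdh1 (3.59 and 3.89 with DAPT, 3.16 and 3.22 with vehicle) and Epcam (3.23 and 2.76 with DAPT, 3.52 and 4.24 with vehicle) were likewise far above the reference in both groups.

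Of the 9 fibroblast markers, 5 fell with DAPT and none rose: Mgp, Fbln2, Dcn, Pdgfrb and Thy1. Pdgfra, Fbln1, Fap and Lum did not pass the threshold of 0.05 on the Benjamini-Hochberg adjusted p of limma. Over all genes tested 3.93% were called lower and 2.9% higher, 6.84% in all. The median log2 change of the 9 was -0.99, against -0.06 for all genes tested. In 8 of the 9 both DAPT ratios lay below both vehicle ratios, which was so for 31.7% of all genes. In the red channel alone this held for 7 of the 9, against 25% of all genes. Thy1 lost its call under several settings, given with its values. With the red channel alone none of the 9 passed and 1 gene passed in all (0.00466%, and 2636 genes at an unadjusted p under 0.05). With the spots of extreme background kept only Mgp and Fbln2 passed (0.326% of all genes lower). Without marked spots only Lum could be tested, and it did not pass (1.86% of genes lower).

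**Figure D1:**
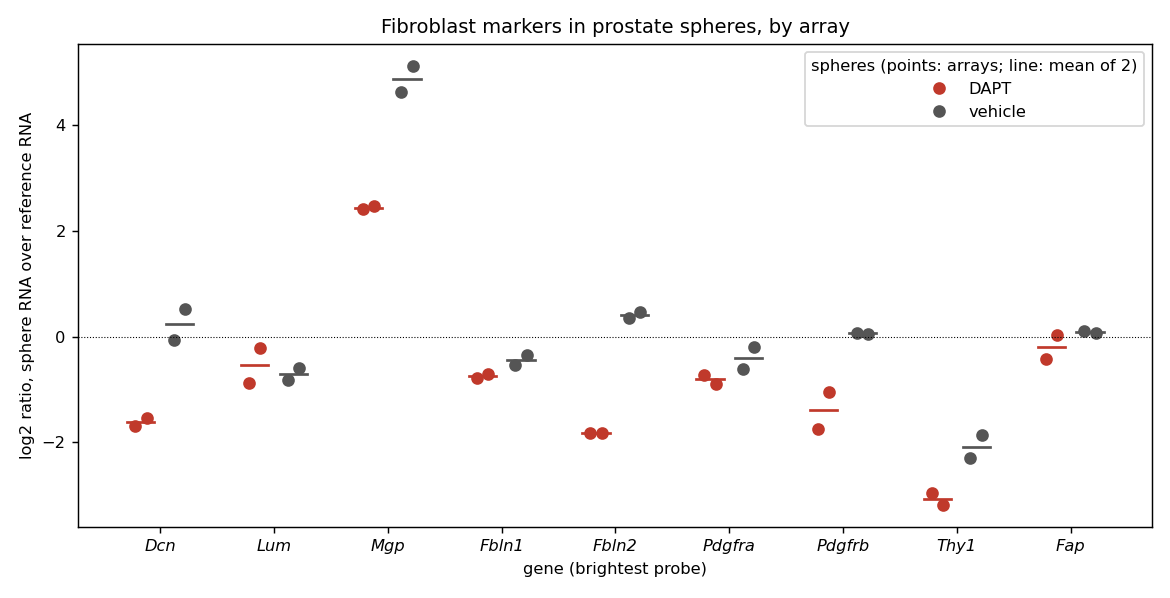
Log2 ratio of sphere RNA over reference RNA (vertical axis) for the brightest probe of each of the 9 genes, with DAPT arrays left of vehicle arrays, points for arrays and a line for the mean of 2. Mgp lies near 2.4 with DAPT and near 4.9 with vehicle, while the points of Lum overlap between the groups.

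Decorin and lumican, neighbours on chromosome 10 (GRCm38.p6, Dcn at 97479500 to 97518163 and Lum at 97565501 to 97572703), were measured by 1 probe each. The log2 ratio of Dcn was -1.70 and -1.55 in DAPT spheres, against -0.07 and 0.53 in vehicle spheres. Both DAPT arrays were lower than either vehicle array, with a gap of 1.48 between the nearest. The change was -1.85 ± 0.23 (SE, 3.61-fold lower, limma adjusted p = 0.000598, 2 arrays per group). Its red signal, as scanned and before background correction, was 540 and 479.5 with DAPT and 1011.5 and 1044 with vehicle, over local backgrounds of 55 to 65. After normalization between arrays (loess, then Aquantile) the red signal differed by -1.85 and the green reference signal by -0.00072, so the fall of Dcn lay in the sphere channel.

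Lum stood at -0.87 and -0.22 in DAPT spheres and -0.83 and -0.59 in vehicle spheres, and the groups overlapped. Its change of 0.16 ± 0.24 did not pass (adjusted p = 0.725), with a 95% interval of -0.35 to 0.68. The probe was dim. Red signals of 91.5 and 94.5 with DAPT and 97 and 82 with vehicle stood over backgrounds of 55 to 59, and on the DAPT 1 array the spot was not well above background. In the red channel alone the sign turned, with a difference of -0.48. The probe passed the filter through the vehicle group, so its ratio on the DAPT 1 array is uncertain.

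Mgp was the marker with the highest ratio to the reference in both groups. It stood at 2.42 and 2.47 in DAPT spheres, against 4.64 and 5.12 in vehicle spheres. Both groups thus held more Mgp RNA than the reference pool, and the DAPT arrays lay 0.06 log2 units apart. The change of -2.44 ± 0.22 (5.42-fold lower, adjusted p = 8.53e-05) was the 14th largest fall of all genes tested. As scanned, red signals were 3323 and 2140 with DAPT and 15521.5 and 6239 with vehicle. After normalization the red signal differed by -2.73 and the green by -0.29, with vehicle 1 the brightest array in both channels (15.01 in red and 10.37 in green).

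Of the fibulins, Fbln2 fell and Fbln1 did not pass. Fbln2 stood at -1.82 and -1.83 in DAPT spheres, against 0.36 and 0.47 in vehicle spheres. The gap of 2.18 between the nearest arrays was wider than the gap of 2.17 for Mgp, and the spread within groups was small. The change was -2.24 ± 0.19 (4.73-fold lower, adjusted p = 7.88e-05). The normalized red signal differed by -1.20, and the green reference signal was higher on the DAPT arrays by 1.04 (13.27 and 12.93 with DAPT, 12.66 and 11.46 with vehicle). The fall in ratio thus lay partly in the reference channel, which holds the same RNA on every array.

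Fbln1 stood at -0.78 and -0.70 in DAPT spheres and -0.54 and -0.35 in vehicle spheres on its brighter probe. The DAPT arrays were lower by at least 0.16, but the change of -0.30 ± 0.20 did not pass (adjusted p = 0.394, 95% interval -0.72 to 0.13). A second Fbln1 probe gave -0.72 and -0.70 with DAPT and -0.43 and -0.25 with vehicle, a change of -0.37 ± 0.19 that did not pass over all probes either (adjusted p = 0.279). The direction of Fbln1 is not settled, since it was 0.24 with the processed signals, 0.07 with median centring and 0.11 in the red channel alone. Within each array Fbln1 minus Fbln2 was 1.03 and 1.13 with DAPT, against -0.90 and -0.82 with vehicle.

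Promoter stretches from the RefSeq promoter table (GRCm38.p6) are shown for 3 of the 9 markers, the fallen Fbln2 and the uncalled Fbln1 and Pdgfra. Promoter entries of the other markers are not covered here. Each run holds the 250 bases before the start that the entry gives, 5′ to 3′ on the plus strand. The windows of Fbln2 and Pdgfra lie downstream of the first base of the annotated gene (91212460 for Fbln2 and 75151322 for Pdgfra), so their entries start at a later site. They cover chr6:91212514-91212763 for Fbln2, chr15:85205699-85205948 for Fbln1 and chr5:75152001-75152250 for Pdgfra. Capitals mark TGGGAA on either strand, the core bound by RBPJ, the DNA-binding partner of active Notch.
Fbln2: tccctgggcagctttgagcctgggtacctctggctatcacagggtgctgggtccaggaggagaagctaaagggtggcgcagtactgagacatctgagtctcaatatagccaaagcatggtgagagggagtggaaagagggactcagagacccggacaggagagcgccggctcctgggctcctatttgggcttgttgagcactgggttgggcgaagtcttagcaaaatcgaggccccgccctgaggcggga
Fbln1: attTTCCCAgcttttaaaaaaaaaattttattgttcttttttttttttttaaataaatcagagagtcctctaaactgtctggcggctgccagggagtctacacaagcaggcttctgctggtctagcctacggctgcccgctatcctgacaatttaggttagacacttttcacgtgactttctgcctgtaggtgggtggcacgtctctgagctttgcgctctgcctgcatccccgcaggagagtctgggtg
Pdgfra: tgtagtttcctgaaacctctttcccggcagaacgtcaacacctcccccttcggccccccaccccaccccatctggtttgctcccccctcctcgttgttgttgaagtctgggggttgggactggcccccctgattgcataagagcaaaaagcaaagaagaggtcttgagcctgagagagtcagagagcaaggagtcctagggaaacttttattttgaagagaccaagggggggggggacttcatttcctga

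Fbln1 held 1 match, on the opposite strand at bases -247 to -242 from the start, and the windows of Fbln2 and Pdgfra held 0. At least 1 such match occurred in the same window of 21.6% of the 32851 promoters searched. Neither the AP-1 motif TGANTCA, found in 6.75% of all windows, nor the TEAD motif GGAATG, found in 12.6%, occurred in any of the 3 on either strand. The RBPJ core and the TEAD motif share the letters GGAA and can overlap. A match is a run of letters and not a bound site, and its absence holds for these windows only.

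The growth factor receptors were measured by 3 probes. Pdgfrb stood at -1.74 and -1.04 in DAPT spheres, against 0.07 and 0.05 in vehicle spheres. The vehicle arrays were nearly equal and the DAPT arrays lay 0.71 apart, yet both DAPT arrays were lower by at least 1.09. The change was -1.45 ± 0.24 (2.74-fold lower, adjusted p = 0.00408). The red signal as scanned was 170 and 148 with DAPT and 265.5 and 191 with vehicle, and after normalization it differed by -1.21 while the green differed by 0.24.

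Pdgfra gave different answers with its probes. The brighter probe stood at -0.72 and -0.89 in DAPT spheres and -0.62 and -0.19 in vehicle spheres, a change of -0.40 ± 0.21 that did not pass (adjusted p = 0.282, 95% interval -0.86 to 0.06). On that probe the red signal differed by 0.62, the opposite sign, and both channels were dim on vehicle 2 (7.93 in red and 8.12 in green, against 9.07 and 9.69 on vehicle 1). The other Pdgfra probe was printed in 10 spots per array and gave means of -1.95 and -1.63 with DAPT, against -1.03 and -0.86 with vehicle. The standard deviation between its spots was 0.23 and 0.42 on the DAPT arrays and 0.17 on each vehicle array. Its change of -0.85 ± 0.20 passed over all probes (adjusted p = 0.0291), with a red difference of -0.92 and a green difference of -0.08. The gene is therefore counted as not called by the rule of the brightest probe, and its probe with more spots fell.

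Among the surface proteins Thy1 fell and Fap did not pass. Thy1 stood at -2.97 and -3.18 in DAPT spheres, against -2.30 and -1.87 in vehicle spheres, far below the reference in both. The change was -0.99 ± 0.21 (1.99-fold lower, adjusted p = 0.017). Red signals as scanned were 168 and 143 with DAPT and 124.5 and 148 with vehicle, and after normalization the red differed by -0.60 and the green by 0.39. A dimmer Thy1 probe was not well above background on either DAPT array. Its normalized signal differed by -0.89 in red and by -0.46 in green. The ratio changed by -0.42 ± 0.23 with overlapping groups and did not pass (limma adjusted p = 0.299 over all probes). The call of Thy1 was lost without vehicle 2 (change of -0.77, adjusted p = 0.0644), without DAPT 2 (-0.88, adjusted p = 0.0531), with median centring (-0.70), with the processed signals (-0.72), with scale normalization (-0.45), with an offset of 16 (-0.96) and with the spots of extreme background kept (-0.30). It was also lost in the red channel alone (-0.60) and where both probes had to pass (mean change of -0.71). In that last setting the limma adjusted p is that of the dimmer probe, and the brighter probe passed by itself (0.018 over all probes). Under these 9 settings the adjusted p ranged from 0.053 to 0.856.

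Fap stood at -0.42 and 0.04 in DAPT spheres and 0.12 and 0.08 in vehicle spheres. The groups were separated by 0.04 only, and the change of -0.29 ± 0.21 did not pass (adjusted p = 0.453, 95% interval -0.75 to 0.17). Its red signals were 157 and 119 with DAPT and 133 and 114 with vehicle, over backgrounds of 61 to 64.5.

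**Figure D2:**
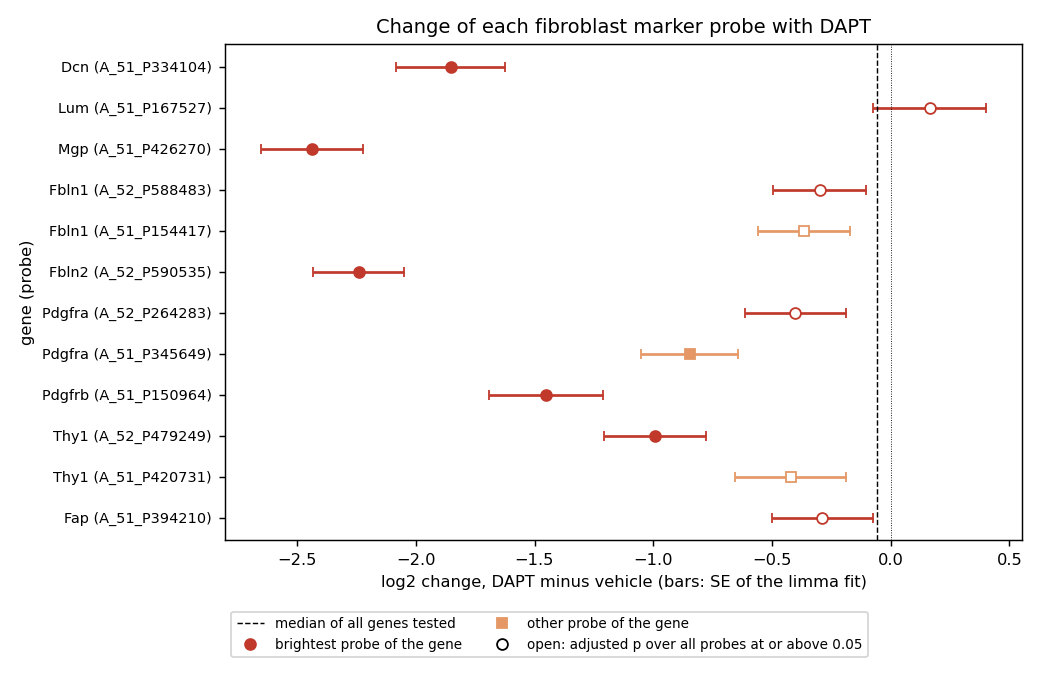
Log2 change of DAPT minus vehicle (horizontal axis, bars of 1 SE from the limma fit) for each of the 12 probes, with filled symbols where the adjusted p over all probes was under 0.05 and squares for a gene's other probe. Mgp, Fbln2, Dcn and Pdgfrb lie at or beyond -1.45, and Lum, Fbln1 and Fap lie within 0.37 of 0.

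**Figure D3:**
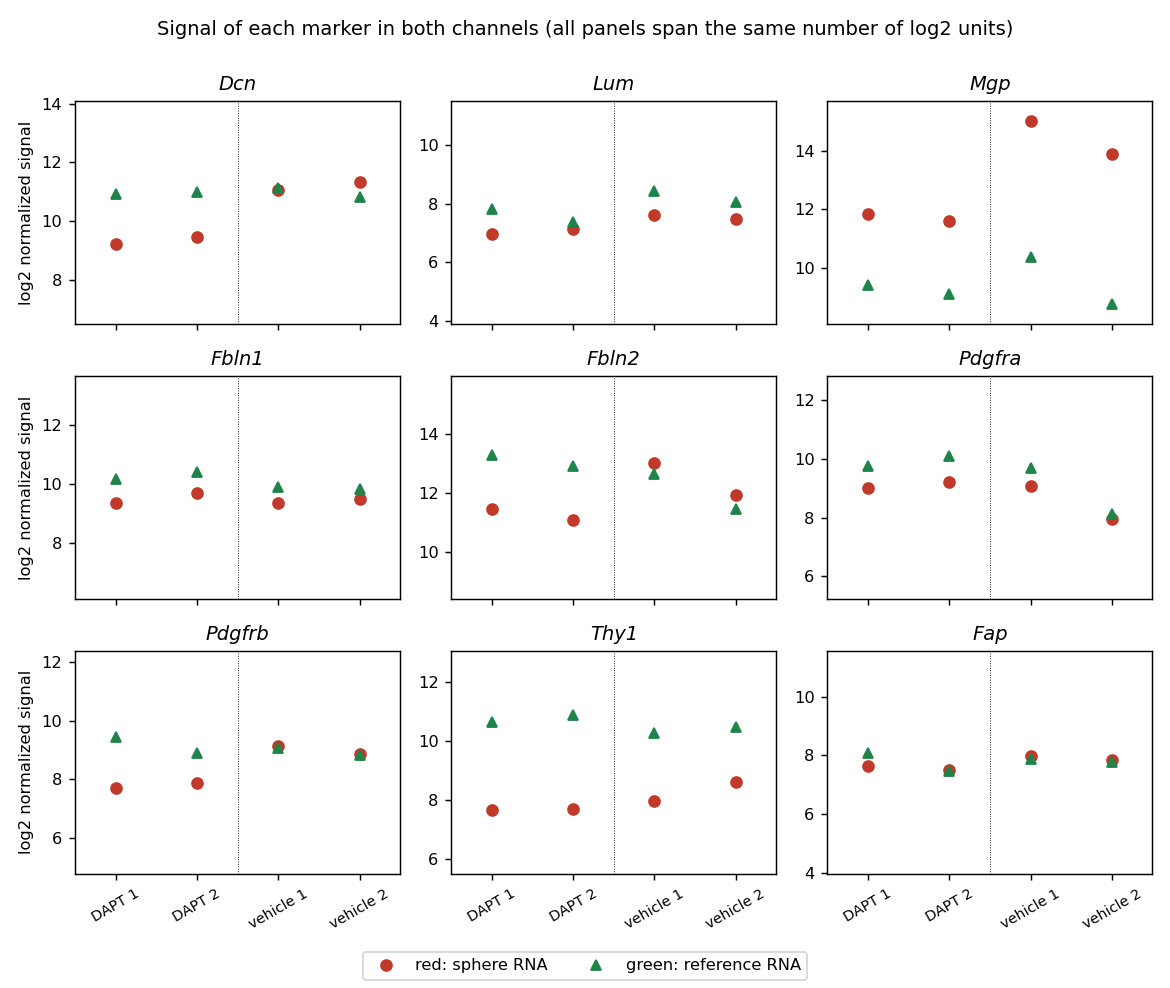
Normalized log2 signal (vertical axis) of sphere RNA in red and reference RNA in green on each array, 1 panel per gene and DAPT arrays on the left. Red points drop below green ones on the DAPT arrays for Dcn, Fbln2 and Pdgfrb, and for Fbln2 the green points are also higher there.

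A smaller share of 1 cell type would lower all RNAs made only by that type by the same factor. None of the 9 is made by fibroblasts alone, so their changes need not be equal. The changes were set beside each other as a description. They ran from -2.44 for Mgp to 0.16 for the dim Lum probe, a span of 2.60 log2 units with a standard deviation of 0.95 over the 9 genes. The 95% interval of Dcn (-2.35 to -1.36) overlapped those of Fbln2 (-2.66 to -1.82), Mgp (-2.90 to -1.97), Pdgfrb (-1.97 to -0.93) and Thy1 (-1.46 to -0.52). It lay wholly below those of Lum, Fbln1, Pdgfra and Fap. The interval of Thy1 lay wholly above those of Mgp and Fbln2. These intervals rest on 2 arrays per group and on the spread limma borrows across genes. They describe the changes of single genes and are no test of a common factor. With 2 arrays against 2, an exact two-sided permutation test of any single difference cannot go below 0.333. In bulk RNA, fewer cells of a type and less RNA per cell cannot be told apart.

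Differences between markers were also taken within arrays. Mgp minus Fbln2 was 4.23 and 4.30 with DAPT and 4.27 and 4.65 with vehicle, and the groups overlapped. Dcn minus Pdgfrb was 0.05 and -0.51 with DAPT and -0.14 and 0.48 with vehicle, again overlapping. Fbln1 minus Fap was -0.37 and -0.73 with DAPT and -0.65 and -0.43 with vehicle. In other pairs the groups did not overlap: Mgp minus Fbln1 was 3.20 and 3.17 with DAPT, against 5.17 and 5.47 with vehicle. This was also so for some pairs of called markers. Mgp minus Thy1 was 5.38 and 5.65 with DAPT, against 6.94 and 6.99 with vehicle. Mgp minus Pdgfrb was 4.16 and 3.51 with DAPT, against 4.57 and 5.07 with vehicle. In these pairs with Mgp the changes differed in size, and the levels lay closer together with DAPT. The groups overlapped in 3 of the 10 pairs of called markers and in 6 of all 36 pairs. The share among pairs of all genes was not computed, and the 36 pairs reuse the same markers. The counts therefore describe these pairs only. Calls sort genes by the change itself, so pairs of like call are partly fixed to lie close.

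Other genes made by fibroblasts were read from the same fit. Of 30 further fibroblast markers 25 were tested, and 16 fell and 2 rose (median change -1.16, against -0.06 for all genes). Postn, which encodes periostin, stood at -0.42 and -0.14 with DAPT, against 2.27 and 1.96 with vehicle, a change of -2.39 ± 0.21. Sparc, which encodes osteonectin, stood at -1.86 and -1.75 with DAPT, against 0.54 and 0.62 with vehicle, a change of -2.39 ± 0.19. For Fn1, the fibronectin gene, the values were -1.39 and -1.35 with DAPT and 0.71 and 0.96 with vehicle (-2.20 ± 0.20). The mesenchymal transcription factor gene Prrx1 stood at -2.68 and -2.57 with DAPT, against -0.74 and -0.27 with vehicle (-2.12 ± 0.21), and its probes disagreed, with a mean change of -1.19 over them that did not pass (adjusted p = 0.289 for the weakest). The genes that rose, named after their values were seen, were Cd34, a surface glycoprotein shared by fibroblasts and vessel cells, at 0.99 ± 0.23, and Sfrp1, a secreted WNT inhibitor, at 0.86 ± 0.19. Without vehicle 1, DAPT 1 or DAPT 2, 1 of the 25 rose. Vim, the vimentin gene, chosen likewise, fell by 1.91 on the log2 scale. With the spots of extreme background kept 5 of the 25 fell and 0 rose, and in the red channel alone 0 passed with a median of -1.17. With the filter on all 4 arrays 14 of 22 fell and 2 rose.

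The families of the 9 markers were mixed. Of 11 other small leucine-rich proteoglycans 6 were tested, and 1 fell. This was Bgn, which encodes biglycan, at -2.09 and -1.72 with DAPT, against -0.24 and 0.23 with vehicle, a change of -1.89 ± 0.23. Kera, Prelp, Omd, Aspn and Podn were too dim to be tested. Of 13 fibulin relatives and elastic fibre genes 11 were tested, and 5 fell with a median of -0.75. Mfap5, 1 of the 5, was not well above background in red on either DAPT array. It passed the filter through the vehicle group. With the filter on all 4 arrays 5 of 10 fell. The fibrillin gene Fbn1 changed by -1.78 ± 0.19, Ltbp2, which encodes a protein related to latent TGF-beta binding proteins, by -1.35 ± 0.20, Efemp2, also called fibulin 4, by -1.30 ± 0.23 and the elastic fibre gene Emilin1 by -1.07 ± 0.20. With the processed signals neither Ltbp2 (-0.77, adjusted p = 0.19) nor Efemp2 (-0.65, adjusted p = 0.289) passed. Efemp1, also called fibulin 3, stood at 0.58 ± 0.24 and did not pass. With the spots of extreme background kept none of the 11 passed.

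Of 10 other genes of the PDGF pathway 2 fell and none rose, with a median of -0.05. With the spots of extreme background kept 0 of the 10 fell. The ligand gene Pdgfc stood at -0.88 and -0.86 with DAPT, against 0.10 and -0.14 with vehicle (-0.85 ± 0.20), and the receptor-like gene Pdgfrl at -1.37 and -1.36 with DAPT, against -0.47 and -0.73 with vehicle (-0.77 ± 0.20). For Pdgfrl the red channel alone gave 0.09, and the call was lost with the processed signals (-0.32), median centring (-0.44), scale normalization (-0.55) and an offset of 16 (-0.74). Pdgfc lost its call without vehicle 1, DAPT 1 or DAPT 2 (adjusted p = 0.066, 0.0539 and 0.0563), and so did Pdgfrl (adjusted p = 0.111, 0.0852 and 0.102). The ligands Pdgfa at 0.13 ± 0.22, Pdgfb at -0.21 ± 0.21 and Pdgfd at 0.51 ± 0.21 did not pass.

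Markers of other cells that a sorted fraction could hold were measured on the same arrays, and their part in the falls of the 9 genes was not tested. Of 15 smooth muscle and pericyte markers 3 fell and none rose (median -0.28). They were Cspg4, a pericyte proteoglycan, at -1.24 ± 0.20, the smooth muscle myosin gene Myh11 at -1.16 ± 0.22 and Notch3, the Notch receptor of mural cells, at -0.81 ± 0.21. The Notch3 probe was not well above background in red on DAPT 1, and it passed the filter through the vehicle group. With the filter on all 4 arrays 2 of 13 fell, and with the spots of extreme background kept 0 of 15 fell. Myh11 did not pass with the processed signals (-1.04, adjusted p = 0.0814). Notch3 lost its call without vehicle 2 (adjusted p = 0.0969) and without DAPT 1 (0.192). The contractile genes Acta2 at -0.04 ± 0.21 and Actg2 at -0.11 ± 0.20 did not pass. Of the 15 changes 13 were below 0. Summed normalized red signal of the 15 was 84336 and 95641 with DAPT and 83532 and 115220 with vehicle, and the groups overlapped. That sum was carried largely by Acta2, Tagln and Actg2, and the dimmer genes weighed little in it. For the 9 fibroblast markers the same sum was 9013 and 8193 with DAPT, against 45804 and 24026 with vehicle, a sum carried largely by Mgp and Fbln2. The other 7 summed to 2526 and 2897 with DAPT, against 4579 and 4835 with vehicle. For the 25 further fibroblast markers it was 49768 and 39019 with DAPT, against 94221 and 80502 with vehicle. On every array the brightest of the 25 was Gsn, which was not called. S100a4, also not called, was dim in both channels on DAPT 2. Its log2 signals there were 10.27 in red and 12.16 in green, against 13.29 and 15.17 on DAPT 1. Its ratios were -1.87 on DAPT 1 and -1.89 on DAPT 2. Vehicle 1 was also bright in the basal sum (204502 and 197005 with DAPT, 342649 and 200597 with vehicle) and in the luminal sum (99014 and 101406 with DAPT, 186434 and 111465 with vehicle).

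Of 11 endothelial markers 7 were tested and 0 passed in limma (2 at an unadjusted p under 0.05, both lower). At that level 2797 of all 21451 genes were lower and 2190 higher. The defining genes Cdh5, Kdr, Tie1 and Tek were too dim to be tested, as no group had them well above background throughout, though 2 of the 4 were so on at least 1 array. Their tested members summed to 5158 and 5403 in DAPT spheres and 5060 and 4289 in vehicle spheres. Of 12 leukocyte markers 11 were tested and 0 passed (2 at an unadjusted p under 0.05, both lower), with a sum of 8135 and 9581 in DAPT spheres and 7849 and 9441 in vehicle spheres. Without vehicle 1, and likewise without vehicle 2, 1 leukocyte marker fell. Of 5 tested glial markers Gfap fell (-0.87 ± 0.21), and it did not pass without DAPT 2. With the spots of extreme background kept 0 of the 5 fell.

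Of 12 basal markers 1 fell, Krt15 at -1.08 ± 0.20, and the median was 0.21. Krt15 was dim in both channels on DAPT 2. Its log2 signals there were 10.17 in red and 6.11 in green, against 13.76 and 9.38 on DAPT 1. With the spots of extreme background kept 0 of the 12 fell. Krt15 did not pass with the processed signals (-0.48), median centring (-0.70) or an offset of 16 (-0.73). Of 9 tested luminal markers 2 fell (median -0.30), among them the keratin gene Krt19 at -1.11 ± 0.19. Krt19 did not pass with the processed signals (-0.81, adjusted p = 0.166) or median centring (-0.65, adjusted p = 0.0605). Of 8 general epithelial markers 1 rose (median 0.08), the tight junction gene Ocln at 0.90 ± 0.19. Ocln did not pass with the processed signals (0.24), scale normalization (0.25), over every probe (0.65), with an offset of 16 (0.82) or without marked spots (0.39), and it turned to -0.21 with the spots of extreme background kept. Krt5 at 0.27 ± 0.22, Krt14 at 0.04 ± 0.23, Cdh1 at 0.54 ± 0.20 and Epcam at -0.89 ± 0.26 did not pass. Krt5, Krt14 and Cdh1 were below 0 with scale normalization, under which Krt14 (-0.86, adjusted p = 0.0365) and Epcam (-1.65, adjusted p = 0.00896) were called lower. Epcam was also called lower without vehicle 1 (adjusted p = 0.00396) and without DAPT 1 (0.00912), and Krt5 was called higher with median centring (0.75, adjusted p = 0.0429). With scale normalization 4 of the 12 basal, 5 of the 9 luminal and 3 of the 8 general epithelial markers were lower, with medians of -0.57, -1.17 and -0.57, against -0.45 for the 9 fibroblast markers.

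**Figure D4:**
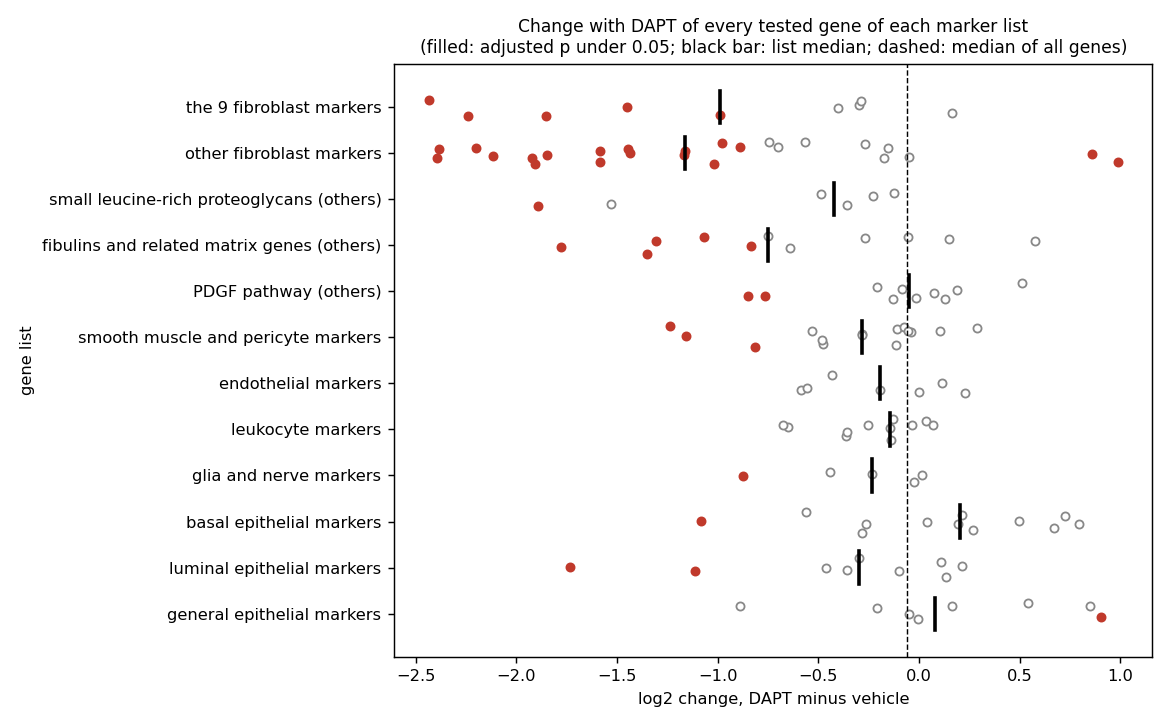
Log2 change of DAPT minus vehicle (horizontal axis) for each tested gene of the 12 marker lists, filled where the adjusted p over all genes was under 0.05, with a bar at the list median and a dashed line at the median of all genes. The 9 markers and the further fibroblast markers have medians of -0.99 and -1.16, and the endothelial and leukocyte lists hold no filled point.

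The genes with the most similar values over the 4 arrays were found by the Euclidean distance between log2 ratios, among named genes tested. For Mgp no gene lay within 0.5, and the nearest were Nupr1 at 0.64, Ly6d at 1.05 and Ctla2a at 1.16. For Fbln2 only 3 lay within 0.5, Sparc at 0.25, Mmp11 at 0.33 and F2r at 0.36. For Dcn 4 lay within that distance, the nearest being Mmp11 at 0.36, Fkbp10 at 0.46 and Dusp6 at 0.48, so Mmp11 stood beside both. Pdgfrb was nearest to Ddah2 at 0.37, Osmr at 0.49 and Emilin1 at 0.56, and Thy1 to Pou2af1 at 0.45, A930018P22Rik at 0.51 and Mzb1 at 0.54. The uncalled members lay where genes are dense. Fbln1 had 1579 genes within 0.5, Pdgfra 975, Fap 832 and Lum 413, and for them the nearest genes, Slc4a10 for Fbln1 at 0.04, 5430402E10Rik for Pdgfra at 0.07, Dnah2 for Fap at 0.13 and Mllt1 for Lum at 0.10, were close to many others.

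**Figure D5:**
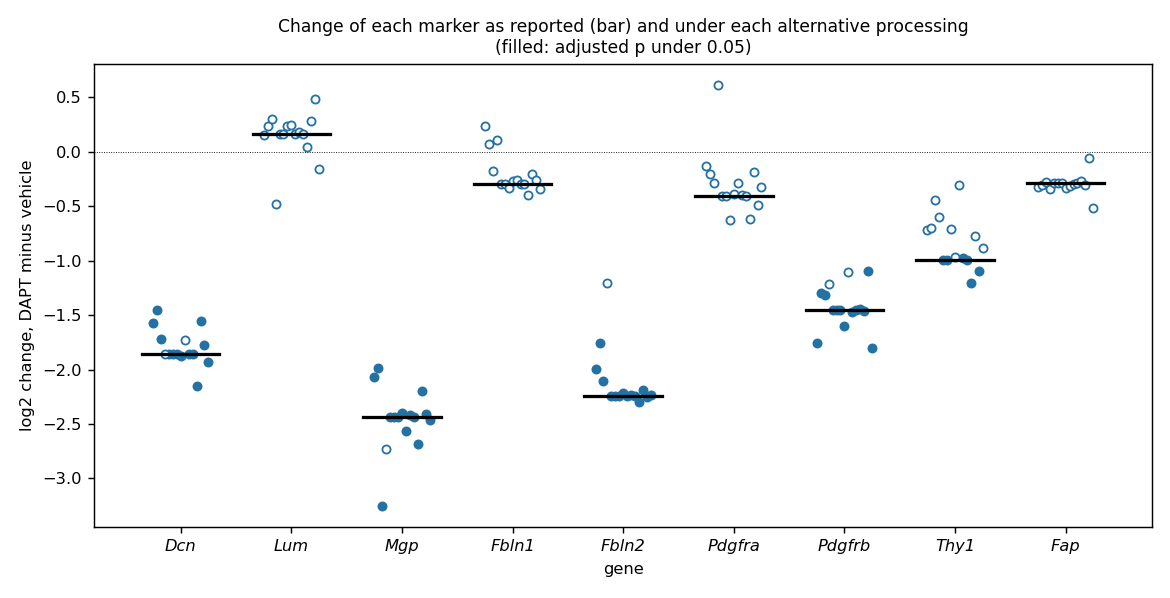
Log2 change of DAPT minus vehicle (vertical axis) of each gene as reported (black bar) and under each alternative processing (points, filled where the adjusted p was under 0.05). Mgp lies between -3.25 and -1.98, Fbln2 between -2.30 and -1.20 and Dcn between -2.15 and -1.45, while Lum, Fbln1 and Pdgfra have points on both sides of 0.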

How the data were processed

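RNA was measured on 4 two-colour arrays. Per the file headers, Agilent Feature Extraction 10.7.3.1 wrote median spot and local background intensity for both dyes, unnormalized, beside processed intensity values and their log10 ratio. The authors' deposited value table holds log2 ratios of unstated normalization; they correlated at 0.9996 to 0.9998 with those computed here, so their direction is spheres over reference. Background was corrected with normexp (offset 50), then loess within arrays, in limma 3.58.1 and R 4.3.3. On DAPT 2, 13 spots with a local background over 5 times the median were left out. A probe was kept where every red spot stood well above background throughout 1 group, and the brightest stood for its gene. Of 41174 probes 24375 were named through RefSeq accessions (GRCm38.p6). Groups were compared with lmFit and eBayes, two-sided, Benjamini-Hochberg over 21451 genes, checked on simulated data. With 4 arrays, their number limits the precision. Of the 9 members' probes, 7 and 5 were marked as non-uniform or outliers on the DAPT arrays and 0 and 6 on the vehicle arrays. Over the whole array the marked share was 49.6% and 50.9% on the DAPT arrays and 11.5% and 29.2% on the vehicle arrays. Marked spots were kept. The genes named are the 9 members, up to 4 called genes per list with the largest change, 4 epithelial genes and the 3 nearest genes (fewer are printed). Cd34, Sfrp1, Vim, Gsn, S100a4, Efemp1, Mfap5, Pdgfa, Pdgfb, Pdgfd, Acta2, Actg2, Tagln and genes too dim to test were named after their values were seen. Members and lists were chosen with earlier results of these data known. The result of 1 luminal marker is not reported here. Samples were grouped by title. Same-numbered arrays of the groups deviated together at r = 0.084, and the numbers were not taken as pairs. Alternatives are given in the closing section.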

Additional observations from a re-analysis of the deposited data

How the results depend on the processing

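Mgp, Fbln2, Dcn and Pdgfrb kept their direction under the 15 alternatives in which they could be tested. Without marked spots only Lum could be tested. Genes called (1467) numbered 622 with the processed signals, 1 in the red channel alone, 74 with the spots of extreme background kept and 248 (of 3929 tested) without marked spots, and 1039 to 1845 without 1 array. Markers called lower (5) numbered 0 in the red channel alone, 2 with those spots kept and 0 of 1 without marked spots. The markers' median (-0.99) was -0.72 with the processed signals, -0.70 with median centring, -0.45 with scale normalization, -0.60 in the red channel alone, -1.22 with the filter on all 4 arrays, -0.71 over every probe, -0.31 with the background spots kept, 0.16 (Lum alone) without marked spots and -1.21 to -0.77 without 1 array. Signs turned for Fbln1 (0.24 with the processed signals, 0.069 with median centring, 0.11 in red alone), Pdgfra (0.62 in red alone) and Lum (-0.48 in red alone, -0.16 to 0.49 without 1 array). They also turned for Krt5 (-0.76 with scale normalization, -0.35 in red alone), Krt14 (-0.86 with scale normalization, -0.034 with the background spots kept, -0.28 to 0.36 without 1 array), Cdh1 (-0.20 with scale normalization, -0.16 in red alone, -0.38 with the background spots kept), Ocln (-0.21 with those spots kept) and Pdgfrl (0.094 in red alone). The cause was not tested, except that without marked spots fewer genes remain. The replicate number as a block raised the genes called to 2056. Dim probes (Lum, Thy1, Fap) limit what can be seen.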
